A study of Mus musculus with 4 samples.

Results

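Homeostatic microglia carrying immediate early genes made up 1684 of the 13820 cells kept from 4 mouse brains. The members were chosen by their own reads. A member had at least 1 read of Trem2 and of Cx3cr1, at least 1 read of each of Jun, Junb, Fosb and Egr1, and 0 reads of Apoe, Cst7, Itgax, Cd3e, Cd79a and Ccr2. Kept cells had 40 or more genes with a read and at most 59300 reads, which held for 13820 of the 21172 cells in the tables. There were 74 and 372 members from the 2 Abi3-/- mice, against 869 and 369 from the 2 Abi3+/+ mice. Throughout, values of the 4 mice are listed in the order Abi3-/- 1, Abi3-/- 2, Abi3+/+ 1 and Abi3+/+ 2.

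All 4 animals were 9-month-old male 5XFAD mice, a transgenic model of Aβ amyloidosis, and they differed in the Abi3 locus, which was either intact (Abi3+/+) or deleted on both copies (Abi3-/-). The deletion was a targeted definitive null made in C57BL/6N mice, and the animals were heterozygous for the Trem2 variant of the SJL background. Cells came from the right hemisphere without the cerebellum, were released with ice-cold Accutase, and were read with a targeted panel of 397 mostly immune genes, with 1 library per mouse. Abi3 is not among the 397 genes, so its deletion could not be checked in these cells. No source used here says on which day each mouse was processed, so a difference between genotypes and a difference between preparations cannot be told apart.

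Jun, Junb and Fosb encode subunits of AP-1, a dimeric transcription factor, and Egr1 encodes a zinc finger transcription factor. All are immediate early genes, which means that they are transcribed within minutes of a stimulus without new protein synthesis. In the brain the lipid receptor Trem2 marks microglia, resting or not, and the fractalkine receptor Cx3cr1 is high in resting microglia, while Apoe, Cst7 and Itgax, and Trem2 itself, rise in the disease-associated state that microglia take around amyloid plaques. The question addressed here was how the cells with all 4 early genes differ from like cells without them, and whether their number or content differs with loss of Abi3. Cells that passed the same gate for Trem2, Cx3cr1 and the 6 excluded genes are called homeostatic-gate cells (4590 in all), and those with reads of at most 1 of the 4 early genes served as comparison cells (69, 188, 163 and 153 cells).

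Microglial identity was checked with 9 markers that the rule did not use (C1qa, C1qb, Fcer1g, Fcgr3, Ctsd, Selplg, Ly86, Lag3 and Itgam). All 9 were read in over 50% of the members of every mouse. Of 6 monocyte and macrophage markers none was read in the Abi3-/- members, and any of them was read in 0.115% and 0.542% of the Abi3+/+ members. Any of 8 neutrophil markers was read in 1.35%, 5.65%, 1.15% and 2.98% of members, against 1.45%, 9.57%, 2.45% and 1.31% of comparison cells. At least 1 of 12 T cell markers was read in 1.35%, 4.57%, 2.42% and 2.44% of members, against 5.80%, 2.66%, 3.68% and 2.61% of comparison cells. Of these 12 genes, Cd3d, Cd3g, Trbc1 and Trbc2, which encode parts of the T cell receptor complex, were at 0 in the members of all 4 mice, while Trac, which encodes another part, was read in members of both Abi3+/+ mice (0.115% and 0.271%). The B cell gene Ms4a1 was at 0 in all members. Ighm, the gene of the IgM heavy chain, and Cd79b were the exceptions among the B cell markers. Both were read in members and in comparison cells of all 4 mice. Ighm had a read in 70.3%, 71.0%, 78.9% and 78.0% of members and in 71.0%, 72.3%, 75.5% and 73.2% of comparison cells. Mbp, a myelin gene, was read in 21.6%, 13.7%, 17.8% and 18.4% of members against 11.6%, 9.04%, 16.6% and 13.1% of comparison cells. The part of myelin RNA in the results was not tested.

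Members were read more deeply than comparison cells. Their median total was 23959, 19004, 19552 and 23250 reads per cell against 17268, 13280, 13084 and 15858, and their median number of genes with a read was 83, 82, 80 and 79 against 69, 68, 64 and 66. The values are reads and not molecules, and a gene that was read in a cell usually had several reads: the fewest reads of Jun, Junb, Fosb or Egr1 in any member was 6, for Junb in Abi3-/- 2. Intervals given for shares of cells cover counting error only. Kept barcodes shared by a pair of libraries numbered 6 to 18, and of these 0 to 2 were members in both. The Abi3+/+ 2 library stood apart in Junb, which is described with the shares.

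Sequences just before the start sites are shown for Dusp1, Junb and Btg1, because Dusp1 and Btg1 were among the genes higher in members, Junb is one of the genes that define them, and each sequence holds a form of the cAMP response element, a motif bound by the CREB family and by AP-1 related dimers. They are the 250 bases upstream of the RefSeq start on GRCm38.p6, written 5′ to 3′ on the gene's strand. Dusp1 lies on the minus strand, with its sequence at chr17:26508473-26508722. Junb also lies on the minus strand, at chr8:84978749-84978998, and Btg1 on the plus strand, at chr10:96616751-96617000. Capitals mark the full element TGACGTCA in Dusp1 and its shorter form, TGACG or CGTCA on either strand, in Junb and Btg1.
Dusp1: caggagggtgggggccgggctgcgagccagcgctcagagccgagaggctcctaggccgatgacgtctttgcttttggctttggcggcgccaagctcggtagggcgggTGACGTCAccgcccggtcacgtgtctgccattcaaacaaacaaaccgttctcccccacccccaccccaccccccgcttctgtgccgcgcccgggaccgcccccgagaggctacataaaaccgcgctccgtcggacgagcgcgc
Junb: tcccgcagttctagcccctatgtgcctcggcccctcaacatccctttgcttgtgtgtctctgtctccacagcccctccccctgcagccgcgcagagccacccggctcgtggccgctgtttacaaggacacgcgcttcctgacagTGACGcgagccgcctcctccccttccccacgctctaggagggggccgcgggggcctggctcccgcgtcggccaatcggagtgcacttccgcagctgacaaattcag
Btg1: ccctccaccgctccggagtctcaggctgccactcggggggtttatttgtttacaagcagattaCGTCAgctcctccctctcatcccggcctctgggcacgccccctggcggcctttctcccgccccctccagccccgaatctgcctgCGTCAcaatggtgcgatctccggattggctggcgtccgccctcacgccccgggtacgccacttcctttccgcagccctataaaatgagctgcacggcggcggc

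TGACGTCA was present in 1.55% of 32841 such windows over all genes, and TGACG or CGTCA, which the full element contains, in 17.8%. Of the 4 early genes and the 7 genes higher in members, 9 had a window in the table. The full element was in 1 of the 9 (Dusp1), and the shorter form was in 5 (Junb, Fosb, Dusp1, Btg1 and Arl4c). TGACTCA or TGAGTCA, the AP-1 element, was in 4.46% of all windows and in 1 of the 9 (Il1a). These are letter matches only, and binding was not measured.

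The 4 genes were not equally frequent in homeostatic-gate cells, where the gate leaves them free to vary. Jun was read in 76.0%, 83.8%, 87.4% and 86.4% of these cells. Egr1 was read in 72.8%, 78.5%, 86.8% and 86.9%. Fosb was the least frequent in every mouse but Abi3+/+ 2, at 25.1% and 34.2% in the Abi3-/- mice against 55.6% and 54.0% in the Abi3+/+ mice. For each of these 3 genes both Abi3-/- mice were below both Abi3+/+ mice, as they were for 17.4% of 264 panel genes in these cells, while for 22.0% they were above. Junb was read in 83.7%, 83.6% and 86.1% of the cells of the first 3 mice, and in 53.5% of those of Abi3+/+ 2. Where Junb was read, its median was 104.5, 102, 120 and 42 reads, so the Abi3+/+ 2 library was low in both respects. Junb was also lowest in the T cells of that library.

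T cells served as the background, since they should lack Trem2 and Cx3cr1. They had a read of Cd3e and of most of Cd3d, Cd3g and Trac, and no read of the microglial gene C1qb. Leaving out cells with C1qb may remove T cells that carry stray microglial RNA, so the background shares may be set low. In 85, 63, 58 and 62 T cells, with median depths of 17405, 15113, 16118 and 16929 reads, Trem2 was read in 4.71%, 3.17%, 8.62% and 11.3%. Homeostatic-gate cells had median depths of 20429, 16603, 17966 and 20881 reads. Jun was read in 1.18% to 5.17% of the T cells and Egr1 in 2.35% to 8.62%, far below the shares in homeostatic-gate cells. Fosb was read in 0.0% and 4.76% of the T cells of the Abi3-/- mice against 6.90% and 9.68% in the Abi3+/+ mice, below the shares in homeostatic-gate cells but in the same order of genotypes, without overlap. The part of this background in the Fosb shares was not tested. Junb was read in 47.1%, 33.3%, 53.4% and 16.1% of the T cells, and T cells themselves transcribe Junb.

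**Figure D1:**
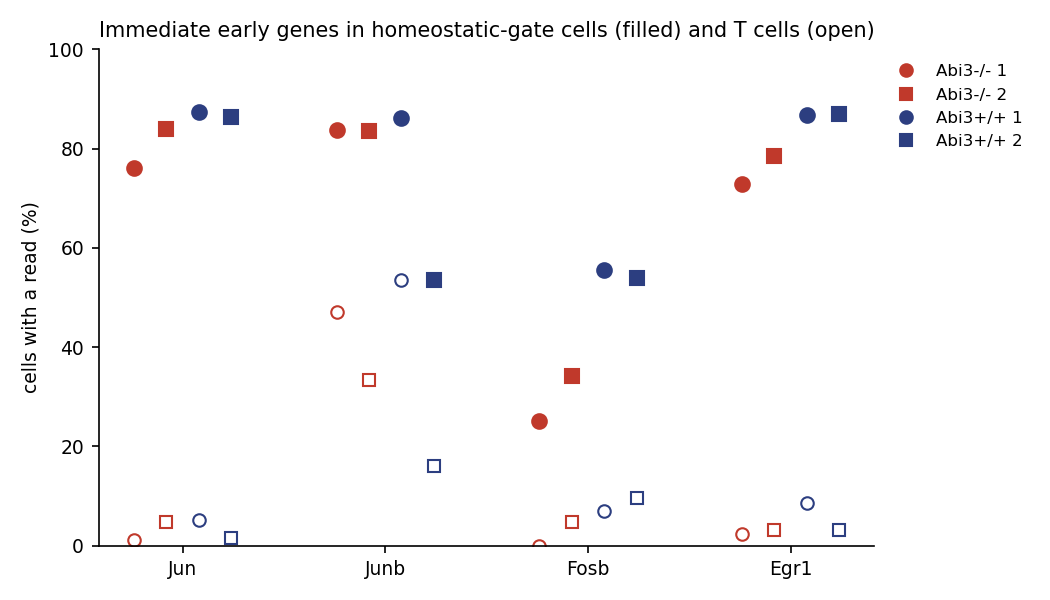
Percentage of cells with a read of Jun, Junb, Fosb and Egr1 in each mouse, with homeostatic-gate cells as filled and T cells as open symbols. Fosb separates the Abi3-/- mice (25.1% and 34.2%) from the Abi3+/+ mice (55.6% and 54.0%), and Junb is low in both cell types of Abi3+/+ 2.

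Fosb decided most memberships at the edge of the rule. Among homeostatic-gate cells with exactly 3 of the 4 genes (166, 530, 582 and 442 cells), the missing gene was Fosb in 89.8%, 91.9%, 82.0% and 45.9%. In Abi3+/+ 2 the missing gene was Junb in 49.5% of such cells, against 0.0%, 2.83% and 6.36% in the other mice. Jun was missing in 1.51% to 6.19% of such cells and Egr1 in 2.94% to 6.02%. Fosb was also seldom the only early gene: it was alone in 0.0%, 0.0%, 6.32% and 2.70% of the cells with a single early gene.

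Inside the members the rule set all 4 genes to be present, and their levels are given as a description. Fosb stood at 5990, 8580, 10200 and 12800 RPM (a gene's part of all reads summed over the cells of a mouse, scaled by TMM), with both Abi3-/- mice below both Abi3+/+ mice. Junb stood at 6740, 7680, 8270 and 2400 RPM, with Abi3+/+ 2 lowest. Jun ranged from 14100 to 19800 and Egr1 from 27000 to 43900, and neither separated the genotypes. The 4 genes together took 5.25%, 6.39%, 6.37% and 8.0% of members' reads against 0.400%, 0.371%, 0.462% and 0.773% of comparison cells' reads, a contrast that the rule itself made. Across members, Spearman's rho between the levels of these genes ran from -0.0969 to 0.168 over the 6 gene pairs and 4 mice (74 to 869 cells, which share a library, differ in depth and were all chosen to hold reads of the 4 genes).

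Members were scarcer in each Abi3-/- mouse than in either Abi3+/+ mouse. Among kept cells their share was 3.19% (95% exact binomial interval 2.51 to 3.99) and 8.27% (7.48 to 9.11) without Abi3, against 22.9% (21.6 to 24.3) and 11.5% (10.4 to 12.7) with it. The means, 5.73% ± 3.59 and 17.2% ± 8.04 (SD, n = 2 each), differed by -11.5 percentage points, which became -5.79 without Abi3+/+ 1 and -6.69 with no filter on cells. The exact two-sided permutation test over mice gave p = 0.333, the smallest p that 2 against 2 mice allow, so no difference in shares could pass a threshold. Much of this difference lay in the gate itself, into which 16.2% and 27.5% of kept cells fell without Abi3, against 47.5% and 36.6% with it. The rule excludes cells with Apoe, Cst7 or Itgax, and cells with Trem2, Cx3cr1 and at least 1 of these 3 genes were 71.4% and 55.1% of kept cells without Abi3 against 40.2% and 33.7% with it.

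Within homeostatic-gate cells Abi3-/- members reached 19.7% (15.8 to 24.1) and 30.0% (27.5 to 32.7), and Abi3+/+ members 48.2% (45.8 to 50.5) and 31.5% (28.8 to 34.2). The groups did not overlap, but Abi3-/- 2 and Abi3+/+ 2 lay within each other's counting intervals. The means were 24.9% ± 7.29 and 39.8% ± 11.8 (SD, n = 2 each), a difference of -14.9 points (exact permutation p = 0.333). Leaving out Abi3+/+ 1 reduced the difference to -6.57 points. With every cell thinned to 10000 reads, which removed 26, 288, 181 and 64 shallower cells, the shares were 19.8%, 31.5%, 50.2% and 31.7%. Among cells with 15000 to 35000 reads, a limit applied to the shares after seeing the data, they were 21.9%, 38.1%, 55.2% and 34.8%, so that the genotypes overlapped at the same difference of -14.9 points (exact permutation p = 0.667). Comparison cells went the other way, at 18.4% and 15.2% of homeostatic-gate cells in the Abi3-/- mice against 9.04% and 13% in the Abi3+/+ mice.

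The genotype gap depended on which of the 4 genes was asked for, in a comparison chosen after seeing the data. With Jun, Fosb and Egr1 required and Junb left free, the share of homeostatic-gate cells was 19.7% and 31.3% without Abi3 against 50.2% and 50.1% with it, a difference of -24.7 points (exact permutation p = 0.333). With Jun, Junb and Egr1 required and Fosb left free, the shares were 59.5% and 69.4% against 74.6% and 48.8%. The genotypes then overlapped, and the difference of the means was 2.74 points in the opposite direction (exact permutation p = 1.0). This turn rested on Abi3+/+ 2, the library low in Junb. With Junb and Fosb both left free, the shares were 62.4% and 72.8% against 80.2% and 81.1%, which did not overlap (-13.1 points, exact permutation p = 0.333). Asking for at least 3 of the 4 genes, whichever they were, gave 64.0% and 72.9% against 80.4% and 69.1%, which also overlapped (-6.36 points, exact permutation p = 0.667). Leaving Jun or Egr1 free gave differences of -15.0 and -14.2 points. Among kept cells, leaving Fosb free gave 9.61% and 19.1% against 35.5% and 17.9%, where the genotypes also overlapped but the difference of the means kept its direction (-12.3 points).

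**Figure D2:**
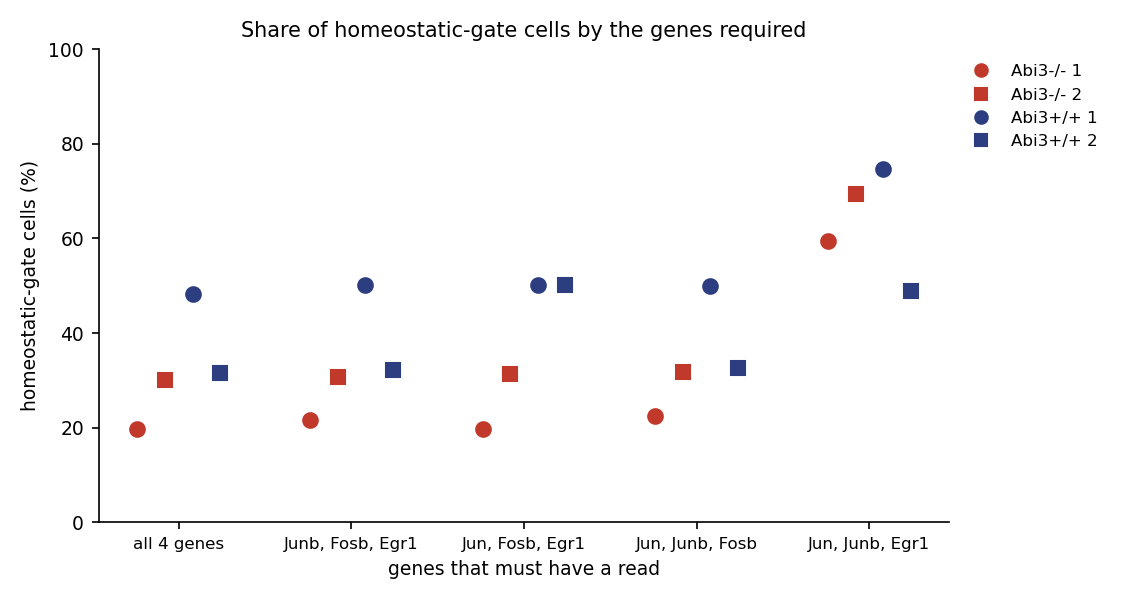
Percentage of homeostatic-gate cells of each mouse in which all the genes named on the x axis had a read. Abi3+/+ 2 moves from 31.5% to 50.1% when Junb is not required, and the genotypes overlap when Fosb is not required but Junb is.

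Summed over all homeostatic-gate cells, members included, Fosb stood at 1560 and 2960 RPM without Abi3 against 5620 and 6970 with it. The Abi3-/- mice were lower and the groups did not overlap, with a log2 difference of -1.48 ± 0.37 (SE) that did not pass edgeR's quasi-likelihood test after adjustment (unadjusted p = 0.0173, adjusted p = 0.530). DESeq2 gave an adjusted p of 0.00822 for the same sums, and over all alternatives the adjusted p of Fosb ran from 0.00822 to 1.0. Egr1 was at 17300 and 25100 against 27200 and 35100, which also did not overlap (log2 difference -0.56 ± 0.27, adjusted p = 0.625 by edgeR). Jun (9180, 12600, 11800 and 16300) overlapped between genotypes, and so did Junb (5130, 5800, 6700 and 1380), whose lowest value was that of Abi3+/+ 2. Of 264 genes tested over these cells, 0.0% passed in edgeR (21 had an unadjusted p under 0.05) and 12 passed in DESeq2. In 25.0% of the 264 genes both Abi3-/- mice were below both Abi3+/+ mice, and in 17.4% they were above, whatever the size of the gap.

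By the same test the genes with the smallest p over homeostatic-gate cells were Adgre1, Gapdh, S100a10, Anxa5 and Alas2. Adgre1, which encodes the macrophage surface protein F4/80, was at 6250 and 6290 RPM in the Abi3-/- mice against 9250 and 10100 (log2 difference -0.63 ± 0.12, adjusted p = 0.530 by edgeR). Gapdh, the glycolytic enzyme, was at 11600 and 12800 against 7500 and 7940 (0.66 ± 0.13). S100a10, which binds an annexin, and Anxa5, itself a membrane-binding annexin, had log2 differences of 1.08 ± 0.25 and 0.82 ± 0.20. Alas2, a haem synthesis gene of red cell precursors, was at 272 and 145 against 0.0 and 0.739 RPM, with a read in 0.533%, 0.162%, 0.0% and 0.0853% of cells. In members Alas2 was at 0.0, 0.0, 0.0 and 2.13 RPM. The levels of both Abi3-/- mice therefore came from other cells of the gate. None of these 5 passed the adjusted threshold in edgeR, and all 5 passed it in DESeq2.

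Members and comparison cells of the same mice were next compared across the panel. The 12 genes of the rule stayed in the fit but got no p, which left 238 tested genes. Of these, 7 (2.94%) were higher in members at an adjusted p under 0.05 in edgeR's quasi-likelihood test with the mouse as a term, and 0.0% were lower. All 7 were higher in 4 of 4 mice, and 5 of them belong to a list of 7 further early response genes, of which 6 could be tested. The list's median log2 difference was 1.86, against 0.05 over all tested genes. The list was chosen with earlier results of these data known, so its overlap and median are a description. Without TMM scaling the same 7 genes passed as higher and 5 more as lower (C1qa, Cd37, Cd9, Ctsd and Tlr2), and that scaling moved the median of all genes from 0.05 to -0.07. DESeq2 called 14 genes, 3 of them lower.

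Dusp1 had the smallest adjusted p of the 7. It encodes a phosphatase that switches off the MAP kinases which activate AP-1, and it is itself an early response gene. It stood at 13600, 21000, 15300 and 25200 RPM in members and at 1560, 1350, 1660 and 3340 in comparison cells, so that the lowest member value was far above the highest comparison value. The log2 difference was 3.31 ± 0.20 (SE, adjusted p = 0.000585 by edgeR). Dusp1 was read in 86.5%, 92.2%, 89.9% and 94.3% of members against 23.2%, 22.9%, 20.9% and 30.1% of comparison cells. With cells thinned to 10000 reads these shares were 86.5%, 92.3%, 90.1% and 94.6% against 23.5%, 25.5%, 22.8% and 30.0%. In T cells Dusp1 was read in 37.6%, 34.9%, 36.2% and 27.4%, which is above the share in comparison cells in the first 3 mice and below it in Abi3+/+ 2.

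Dusp2, a related nuclear phosphatase of the MAP kinases, was much rarer. It was at 190, 413, 193 and 517 RPM in members and at 5.67, 63.2, 7.12 and 70.3 in comparison cells. It was read in 9.46%, 17.7%, 9.21% and 17.1% of members, and the comparison cells of Abi3-/- 1 and Abi3+/+ 1 held 7 and 17 reads of it. The log2 difference was 3.80 ± 0.55 (adjusted p = 0.0150 by edgeR) and lost its call under 7 of 14 alternatives, among them thinning to 10000 reads and the range of 15000 to 35000 reads per cell.

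Ier3, a short-lived early response protein with a part in cell survival, and Rgs1, which quenches signalling of G protein-coupled receptors, came next. Ier3 was at 2780, 4540, 4130 and 6330 RPM in members and at 832, 1750, 897 and 1640 in comparison cells, with no overlap. Its log2 difference was 1.82 ± 0.14 (adjusted p = 0.00104 by edgeR). Rgs1 was at 1740, 4960, 4030 and 6020 in members and at 512, 1080, 1350 and 1470 in comparison cells, again with no overlap, and the log2 difference was 1.90 ± 0.15 (adjusted p = 0.00104). T cells also hold Rgs1, with a read in 64.5% to 85.9% of them.

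Btg1, an antiproliferative gene that is quickly induced in many cell types, was at 9140, 15800, 12000 and 16800 in members against 5200, 6150, 6620 and 6600. The log2 difference was 1.10 ± 0.15 (adjusted p = 0.0150 by edgeR). Il1a, which encodes the cytokine interleukin-1 alpha, was at 1650, 3430, 3660 and 4390 against 1100, 1690, 2500 and 2820. Here the 2 classes overlapped between mice, and the difference of 0.70 ± 0.13 (adjusted p = 0.0475) was seen within each mouse. Arl4c, a small GTPase of the ARF family, was at 5030, 10000, 5710 and 5440 against 3350, 7160, 4220 and 4170. The difference of 0.48 ± 0.07 (adjusted p = 0.0150) was of like size in each mouse, from 0.38 to 0.59.

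Of these 7 genes, Dusp1 and Ier3 passed under all 14 alternatives and Rgs1 under 13. Without Abi3-/- 2 only Dusp1, Ier3 and Rgs1 passed, and the same was found without Abi3+/+ 2. Without Abi3+/+ 1, Btg1 passed as well, and without Abi3-/- 1 all 7 passed among 13 called genes.

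**Figure D3:**
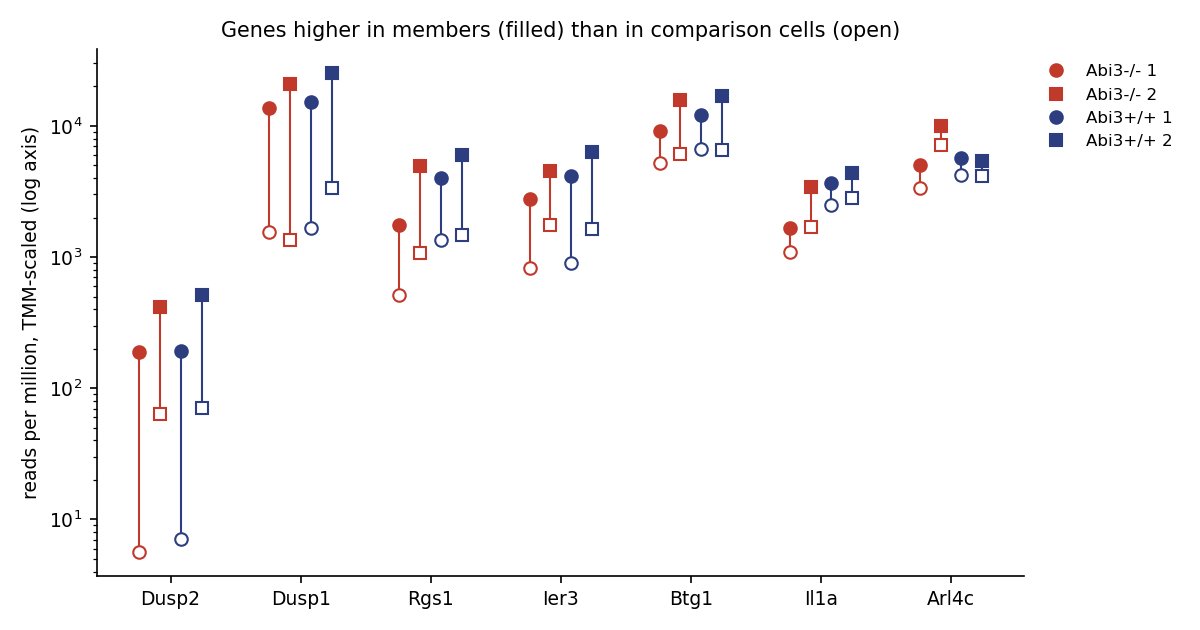
Level of the 7 genes that were higher in members, in RPM scaled by TMM (log axis), with members as filled and comparison cells as open symbols joined within each mouse. Dusp1 lies between 13600 and 25200 in members and between 1350 and 3340 in comparison cells.

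Of 19 listed cytokine and chemokine genes 16 could be tested, and only Il1a passed, with a list median of 0.53. Ccl4, a chemokine that attracts monocytes and T cells, was at 1010, 2950, 2630 and 2780 in members against 84.2, 913, 1430 and 3050 in comparison cells, higher in 3 of 4 mice (log2 difference 1.45 ± 0.56, adjusted p = 0.495 by edgeR). Ccl2, Ccl3 and Tnf had log2 differences of 0.57 ± 0.23, 0.64 ± 0.37 and 0.93 ± 0.61 and did not pass, but Ccl3 passed against comparison cells with none of the 4 early genes (2.73, adjusted p = 0.0213 by edgeR) and Tnf passed without Abi3-/- 1 (1.58, adjusted p = 0.00477). Tnf was higher in members of 3 mice (2040 against 564, 1530 against 442, and 2090 against 981) and lower in those of Abi3-/- 1 (429 against 1170). Cxcl10, an interferon-induced chemokine, was at 0.0, 253, 5.38 and 162 in members and at 0.0 in the comparison cells of all 4 mice, and it passed in DESeq2 and, in edgeR, without Abi3-/- 1. Limma on mean log-normalized values called 21 genes, Ccl2 and Ccl4 among them.

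No gene of microglial identity passed in edgeR with TMM. This held for 10 further homeostatic genes, with a median of -0.01, and Selplg, the adhesion ligand PSGL-1, was at 60400, 41100, 54600 and 42200 in members against 60300, 45000, 55500 and 39500. It also held for 12 genes that all microglia carry (median -0.03). Cd37, a tetraspanin of immune cells, came nearest, at 795, 791, 1100 and 1200 in members against 1020, 1370, 1470 and 1630 (log2 difference -0.49 ± 0.11, adjusted p = 0.107 by edgeR), and it was lower in 4 of 4 mice. Tlr2, the receptor for bacterial lipopeptides, was at 2430, 2680, 2490 and 2460 against 3070, 3320, 3240 and 3060, also lower in 4 of 4 mice (-0.33 ± 0.08, adjusted p = 0.148). DESeq2 and the fit without TMM called both Cd37 and Tlr2 lower. Without TMM, C1qa and Ctsd, of the markers used to check identity, were also called lower, and limma called C1qa lower and Lag3 higher.

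The other lists held no gene that passed in edgeR. This applied to 2 AP-1 upstream kinases, 9 genes of NF-kB and the inflammasome, 10 disease-associated genes outside the rule, 6 of MHC class II, 11 of the interferon response, 11 Toll-like receptors and adaptors, 6 of stress and housekeeping and 9 of the cell cycle. Their medians ran from -0.18 to 0.34. Fth1, the ferritin heavy chain, was slightly higher in members of 4 of 4 mice (0.24 ± 0.06, adjusted p = 0.135), as was H2-K1, an MHC class I gene (0.24 ± 0.06, adjusted p = 0.135). Fth1 passed under 5 alternatives, DESeq2 and thinning to 10000 reads among them. Lyz2, the lysozyme of phagocytes, was lower in 4 of 4 mice (-0.23 ± 0.09, adjusted p = 0.495). Mki67, a marker of dividing cells, was at 0.0, 74.2, 68.9 and 103 in members against 0.0, 425, 264 and 161 (adjusted p = 0.489), while Pcna, a clamp of the replication fork, was at 895, 1060, 1220 and 1300 against 923, 702, 663 and 784 (0.55 ± 0.20, adjusted p = 0.458, and 0.0281 without Abi3-/- 1). S100a8, a neutrophil gene, was at 0.0, 87.5, 17.3 and 19.8 in members against 1030, 815, 69.1 and 409 in comparison cells, with a read in 1.45%, 9.57%, 2.45% and 1.31% of the comparison cells, which is 1 cell of 69 in Abi3-/- 1 and 2 of 153 in Abi3+/+ 2. S100a8 was called lower in members without Abi3-/- 1, and S100a9 was at 0 in both classes of all 4 mice.

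The level of several called genes followed the number of early genes read in a cell, which was examined in all homeostatic-gate cells as a description. Mean Dusp1, as the natural log of 1 + reads per 10000, went from 0.28 with none of the 4 to 4.14 with all 4 in Abi3-/- 1, from 0.28 to 4.65 in Abi3-/- 2, from 0.48 to 4.28 in Abi3+/+ 1 and from 0.63 to 5.04 in Abi3+/+ 2. It was higher at each step in every mouse. Rgs1 and Btg1 were also higher at each step in every mouse, ending at 1.42 to 2.97 and at 4.14 to 4.83. Ier3 levelled off between cells with 3 genes (1.26, 1.72, 1.76 and 1.99) and cells with all 4 (1.30, 1.57, 1.68 and 1.97). Il1a had no steady order in Abi3-/- 1, where it was 1.96 with 3 genes and 1.58 with 4. In Abi3+/+ 1 it was 1.993 with 1 gene and 1.986 with 2. Arl4c was highest with 2 genes in Abi3-/- 2 (4.32, against 4.21 with 4) and in Abi3+/+ 2 (3.41 against 3.28). It was higher at each step only in Abi3+/+ 1. Dusp2 was higher at each step only in Abi3-/- 2 and Abi3+/+ 1. Median depth moved with the number of early genes as well, from 16560, 12655, 11724 and 14921 reads in cells with none to 23959, 19004, 19552 and 23250 in members, and its part in these levels was not tested.

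**Figure D4:**
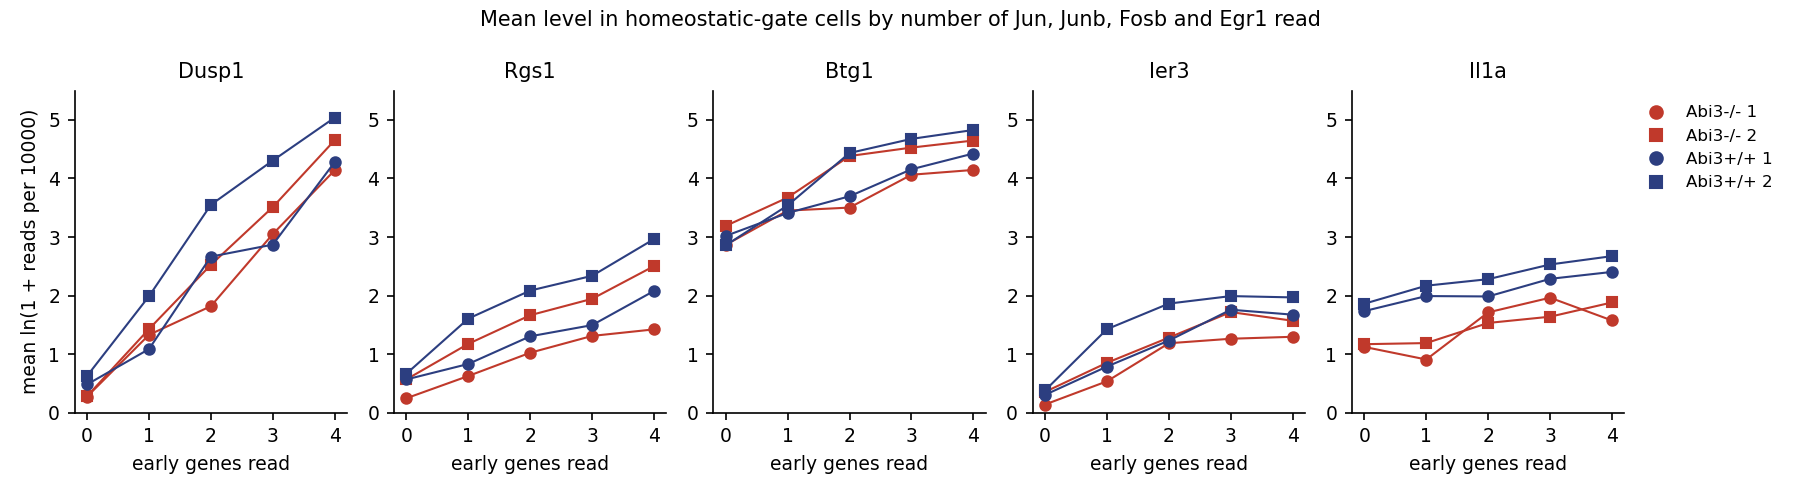
Mean level of 5 genes in homeostatic-gate cells (natural log of 1 + reads per 10000) by how many of Jun, Junb, Fosb and Egr1 had a read, with 1 line per mouse. Dusp1 runs from 0.28 to 0.63 in cells with none to 4.14 to 5.04 in cells with all 4, and Ier3 levels off after 3.

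Cells with all 4 early genes were not restricted to the homeostatic gate. Among the 6742 cells with Trem2, Cx3cr1 and at least 1 of Apoe, Cst7 and Itgax, 18.2%, 24.1%, 37.3% and 25.4% had all 4. The share in homeostatic-gate cells was higher in each mouse, by 6.08 ± 3.79 percentage points (SD, n = 4 mice, exact sign-flip p = 0.125, the smallest that 4 mice allow). The share was lowest where all 3 disease-associated genes were read, at 11.4%, 17.8%, 24.4% and 15.0%, although such cells were the deepest, with medians of 36432, 35756, 37933 and 37202 reads. With 1 of the 3 genes read it was 19.3%, 29.4%, 45.1% and 32.3%, against 19.7%, 30.0%, 48.2% and 31.5% in the gate. With 2 genes read it was 20.1%, 22.5%, 27.1% and 18.5%. Over all 6742 of these cells Abi3+/+ 1 was highest and Abi3-/- 1 lowest, as in the gate. The genotypes overlapped where 2 or 3 of the genes were read, with Abi3+/+ 2 below both Abi3-/- mice at 2 genes and below Abi3-/- 2 at 3.

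**Figure D5:**
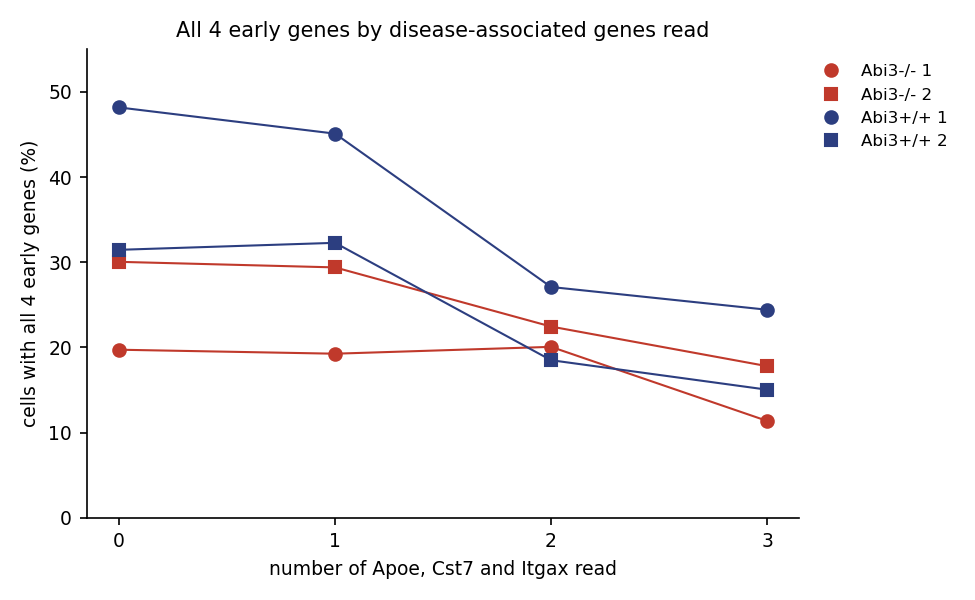
Percentage of cells with all 4 early genes among Trem2 and Cx3cr1 cells of each mouse, by how many of Apoe, Cst7 and Itgax had a read. The share is lowest with all 3 of these genes read, at 11.4% to 24.4%.

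Within members, 0.0% of 243 genes passed between Abi3-/- and Abi3+/+ mice in edgeR (17 had an unadjusted p under 0.05, among them Fosb, whose presence the rule fixed), and DESeq2 called 1, Gapdh. With the genes of the rule left out of the fit the count in edgeR was also 0. The spread between mice of a genotype was wide (common dispersion 0.676), and a count of 0 does not show that the genotypes were alike. Both Abi3-/- mice were below both Abi3+/+ mice in 26.3% of the genes and above them in 14.8%. Gapdh was at 13000 and 13200 RPM in the Abi3-/- mice against 7840 and 7800 (log2 difference 0.75 ± 0.16, adjusted p = 0.590 by edgeR and 0.00162 by DESeq2). Adgre1 was at 6470 and 6320 against 9690 and 9890 (-0.61 ± 0.16), and Slc25a37, the mitochondrial iron importer mitoferrin, at 1940 and 2110 against 3130 and 2820 (-0.55 ± 0.16). Tnfsf13b, which encodes the B cell survival factor BAFF, was at 1500 and 1810 against 819 and 989 (0.87 ± 0.23), and Tnfsf8, the ligand of CD30, at 554 and 440 against 58.6 and 145 (2.29 ± 0.58). Each of these had an adjusted p of 0.590 in edgeR, and none passed.

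The early response genes did not separate the genotypes within members. Dusp1, Ier3, Rgs1, Btg1, Dusp2 and Myc all overlapped between genotypes, and the log2 difference of Dusp1 was -0.23 ± 0.35 (adjusted p = 0.956 by edgeR). Its sign turned to 0.20 without Abi3+/+ 2. Of 6 MHC class II genes, 5 were higher in both Abi3-/- mice, beside 14.8% of all genes, and Abi3-/- 1 held the highest value of each of the 6. H2-Ab1 was at 546 and 111 against 52.1 and 37.0, and Cd74, the invariant chain, at 485 and 226 against 130 and 47.1, with adjusted p of 0.590 for both. Of 10 disease-associated genes outside the rule, 5 were higher in both Abi3-/- mice and none was lower in both. Of 11 Toll-like receptors and adaptors, 6 were lower in both Abi3-/- mice, beside 26.3% of all genes. Leaving out Abi3-/- 2 gave 14 called genes, of which 11 were lower in the remaining Abi3-/- 1 mouse, with the lone mouse assumed to vary like the others.

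Comparison cells come from the same libraries as the members. In them 0.0% of 224 genes passed in edgeR (16 had an unadjusted p under 0.05), and DESeq2 called Gapdh. Fosb and Egr1 were among the 16 and Fosb was also called by DESeq2, but the rule chose these cells by both genes, so their values there are a description. With the genes of the rule left out of the fit the count in edgeR was also 0. A replicate block, with same-numbered mice paired, called 6 genes: Ccl4, Egr1, Gapdh, Lat2, Lyz2 and S100a8. Whether the numbers pair the mice is not known. Gapdh was at 12600 and 13400 in the Abi3-/- mice against 7020 and 7550 (0.86 ± 0.17, adjusted p = 0.593 by edgeR without the block). Adgre1 was at 6450 and 6510 against 9300 and 10200 (-0.56 ± 0.17, adjusted p = 0.661). In 25.9% of the 224 genes both Abi3-/- mice were below both Abi3+/+ mice, and in 17.4% they were above. Of 6 early response genes 3 were lower in both, namely Dusp1 (1560 and 1350 against 1660 and 3340), Rgs1 (512 and 1080 against 1350 and 1470) and Btg1 (5200 and 6150 against 6620 and 6600), and none passed. Of 9 cell cycle genes none was lower in both Abi3-/- mice and 1 was higher. In members 4 were lower in both, beside 26.3% of all genes. Among these 4, Ube2c (0.0 and 72.6 against 92.4 and 73.2 RPM) and Top2a (16.9 and 70.4 against 71.8 and 103) separated narrowly. Pcna and Tyms separated more widely. As in members, 5 of 10 disease-associated genes outside the rule were higher in both Abi3-/- mice and none was lower. Of 6 MHC class II genes, 5 were higher in both and 1 was lower, beside 17.4% and 25.9% of all genes. Il1a was at 1100 and 1690 against 2500 and 2820 (-0.92 ± 0.24), and Ifitm3, an interferon-induced membrane protein, at 581 and 525 against 133 and 214 (1.71 ± 0.49). Fosb was at 0.0 without Abi3 in either mouse and at 144 and 72.4 with it, in cells that may hold at most 1 early gene. Whether the genotype difference itself differed between members and comparison cells was tested as an interaction, and 0.0% of 238 genes passed in edgeR (5 had an unadjusted p under 0.05) and 0 in DESeq2. With so few mice, such a count does not show that the genotype difference was alike in both classes.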

How the data were processed

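Read counts for each gene in each cell were deposited by the authors as they left the targeted BD Rhapsody pipeline, error-corrected but neither filtered nor normalized (mm10 in the submitters' processing notes). After this correction the genes of the rule had at least 6 reads in any member that held them, but 8 panel genes, none of the rule, went down to 1 read in some libraries and not in others, among them Lat2, which is in some counts of called genes under alternatives. The 4 files held 87117727, 150756771, 139841135 and 133496510 reads. Members, comparison cells and gene lists were chosen with earlier results of these data known, and the genes not required in turn, the depth limits on shares and the genotype fits without rule genes were added after seeing the data.

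Counts were summed per mouse and class and tested with edgeR 4.0.16 in R 4.3.3 (quasi-likelihood, TMM, filterByExpr, Benjamini-Hochberg over all tested genes at 0.05), with the SE computed as log2 fold change over the square root of F. DESeq2 1.42.0 and limma 3.58.1 were alternatives. RPM values carry the TMM factor. Shares were compared by exact permutation over mice, with Clopper-Pearson intervals. Functions were tested on simulated data. Doublets were limited only by the maximum of 59300 reads. Named genes were list members, up to 10 called in each direction for members against comparison cells, and for genotype up to 5 with the smallest p and no overlap; Egr1, Cxcl10 and S100a8 were named after their values were seen. RefSeq promoters (GRCm38.p6) are the build of the files. Replicate libraries were not the same library: 1 and 0 genes had equal totals above 0.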

Additional observations from a re-analysis of the deposited data

Results flagged for a closer look

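Myc, an early response transcription factor gene, was set apart by 1 mouse among the 4. Its log2 ratio of members over comparison cells (RPM + 1) was -1.26 in Abi3-/- 1 (173 against 414 RPM) and 1.10, 0.86 and 0.86 in the other mice. The gap took 0.898 of the whole range, above Dixon's 95% critical value for 4 samples, and chance alone flags about 1 in 20 such sets. Ratios of 19 genes were examined in this way. Abi3-/- 1 had the fewest members (74) and comparison cells (69), and the part of cell number was not tested. Without Abi3-/- 1, Myc was called higher in members (edgeR, adjusted p = 0.0182).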

How the results depend on the processing

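The lower share of members in Abi3-/- mice kept its direction under every alternative tried, except among homeostatic-gate cells with Fosb not required, but the genotypes overlapped among homeostatic-gate cells with at least 3 of the 4 genes required (-6.36 points) and among those with 15000 to 35000 reads (-14.9 points), and without the cell filter the difference among kept cells was -6.69 points. The difference between genotypes ran from -17.2 to -5.79 points of kept cells and from -23.3 to -6.57 points of homeostatic-gate cells when 1 mouse was left out in turn. With Fosb not required it was 2.74 points of homeostatic-gate cells and -12.3 of kept cells, and with neither Fosb nor Junb required -13.1 and -18.8. As a replicate block, with same-numbered mice paired, the differences were -11.5 and -14.9 points (exact sign-flip p = 0.5, the smallest for 2 pairs). No source used here says that a number marks a shared day or litter, and deviations of same-numbered mice correlated at 0.297 in members and 0.0807 in comparison cells across 187 genes and at 0.169 in homeostatic-gate cells across 195 genes, so whether the numbers pair the mice is not known. Members against comparison cells gave 12 called genes without TMM, 14 with DESeq2, 21 with limma, 3 with no mouse term and 3 to 13 with 1 mouse left out. Genotype within members gave 1 gene with DESeq2, 0 with the replicate block and 0 to 14 with 1 mouse left out. Within comparison cells it gave 2 with DESeq2, 6 with the replicate block and 0 to 2 with 1 mouse left out. Over homeostatic-gate cells it gave 12 with DESeq2 and 0 with the replicate block, and the interaction gave 0 to 6 with 1 mouse left out. With 1 mouse left out in turn, the log2 difference between genotypes ran from -0.29 (without Abi3+/+ 2) to 1.98 for Junb over homeostatic-gate cells and from -0.56 to 0.20 (without Abi3+/+ 2) for Dusp1 within members. The causes were not tested. Of the gene values under alternatives, 19 lost a call, 27 gained a call and 2 reversed. Each genotype had 2 mice, each mouse 1 library, and the values are reads and not molecules.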
